A study of Mus musculus with 120 samples.

Results

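The comparison concerned the direction in which fasting plasma insulin moved between 8 and 10 weeks of age in leptin-deficient mice. For each F2-ob/ob mouse with an insulin value at both ages, the log2 ratio of the 10-week to the 8-week value was taken, and the 17 mice with the highest ratios (insulin-rise mice) were set against the 17 mice with the lowest (insulin-fall mice). Of the 60 mice with liver arrays, 52 had both values, and the remaining 18 of these formed a middle group that is described but was not tested. All mice came from an intercross of the C57BL/6J (B6) and BTBR strains, carried the ob mutation of leptin on both chromosomes, and were picked from a larger cross by genotype. Livers were taken at 14 weeks of age after a 4-h fast, 4 weeks after the second bleed, and RNA from each liver was measured on 1 MOE430A and 1 MOE430B array. The insulin-rise mice were 12 females and 5 males, and the insulin-fall mice were 8 females and 9 males (two-sided Fisher's exact test, p = 0.296). Each mouse was a separate animal, so n counts mice.

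Without leptin, mice overeat and become insulin resistant, and the beta cells of the pancreas must secrete far more insulin to hold blood glucose. B6 mice made obese sustain this compensation, whereas obese BTBR mice lose it and become severely diabetic. In the liver, insulin acts through its receptor, IRS proteins and AKT to keep the transcription factor FOXO1 out of the nucleus, which lowers genes of glucose output, and through SREBP-1c to raise genes of fatty acid synthesis. It also restrains the breakdown of amino acids, whose nitrogen leaves as urea and whose carbon feeds glucose production.

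The insulin values chose the groups, and they are given as a description. Insulin at 10 weeks ran from 13.4 through a median of 39.8 to 103.8 ng/ml in insulin-rise mice, and from 2.8 through 7.6 to 56.3 ng/ml in insulin-fall mice. At 8 weeks the medians were 24.3 ng/ml in insulin-rise mice and 17.3 ng/ml in insulin-fall mice, and the ranges overlapped almost wholly. The middle mice had medians of 32.55 ng/ml at 8 weeks and 33.8 ng/ml at 10 weeks. Every insulin-rise mouse had a higher value at the second bleed and every insulin-fall mouse a lower one, as the rule required. The ratio reached 4.26-fold in the insulin-rise mouse with the steepest increase and 0.295-fold in the insulin-fall mouse with the steepest decline. The lowest log2 ratio among insulin-rise mice was 0.45, and the middle mouse next to it had 0.42. The highest among insulin-fall mice was -0.48, beside a middle mouse at -0.46.

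**Figure D1:**
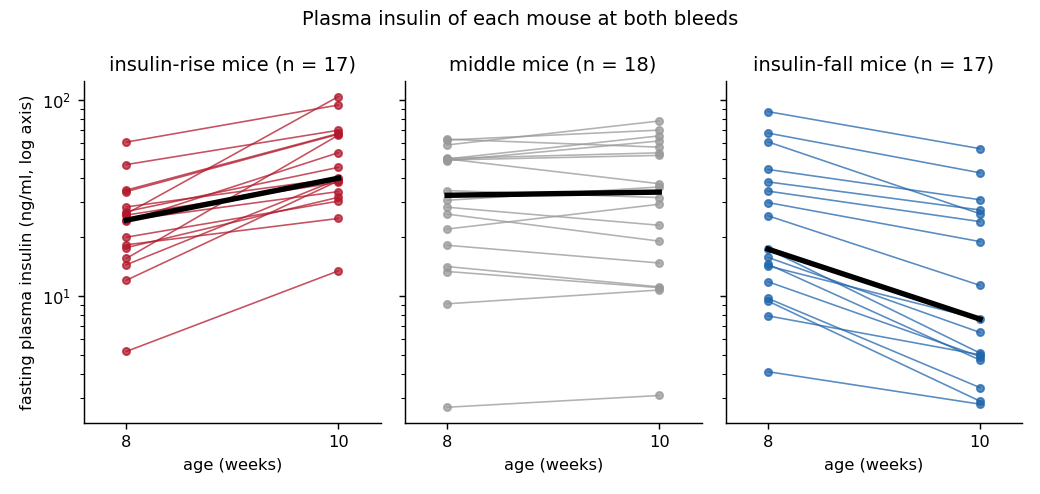
Fasting plasma insulin (ng/ml, log axis) of each mouse at 8 and 10 weeks of age, with 1 line for a mouse and a thick black line joining the medians of its group. The lines climb in all 17 insulin-rise mice and descend in all 17 insulin-fall mice, while the middle medians stay near 33 ng/ml, and starting values at 8 weeks overlap between the groups.

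Blood chemistry differed between the groups. Plasma glucose at 8 weeks ran from 157.3 through a median of 246.2 to 480.3 mg/dl in insulin-rise mice, and from 176.5 through 380.8 to 663.1 mg/dl in insulin-fall mice. It averaged 278.1 ± 86.3 mg/dl in insulin-rise mice and 394.1 ± 125.9 mg/dl in insulin-fall mice (SD, n = 17 each), a difference of -116.0 mg/dl (95% interval -191.4 to -40.6, permutation test with 100000 resamples, two-sided, adjusted p = 0.011 over 7 phenotypes). At 10 weeks glucose ran from 180.8 through 340.8 to 544.8 mg/dl in insulin-rise mice, and from 266.2 through 432.5 to 601.4 mg/dl in insulin-fall mice, a difference in means of -108.9 mg/dl (95% interval -180.5 to -37.3, adjusted p = 0.011). Glucose was thus lower in insulin-rise mice already at 8 weeks. Glucose and insulin were both fasting plasma values at the same ages, and whether they came from the same blood sample was not stated.

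Plasma triglyceride at 10 weeks was lower in insulin-rise mice as well. It averaged 92.0 ± 22.4 mg/dl in insulin-rise mice and 126.04 ± 29.1 mg/dl in insulin-fall mice (SD, n = 16 each), with ranges of 60.9 to 143.2 and 74.2 to 161.5 mg/dl that overlapped (difference -34.0 mg/dl, 95% interval -52.8 to -15.3, permutation test, adjusted p = 0.0085). At 8 weeks triglyceride, compared on the log2 scale for its skew, differed by -0.30 (95% interval -0.60 to 0.00, n = 14 and 15, adjusted p = 0.084) and did not pass. Body weight at 10 weeks was 61.5 ± 5.68 g in insulin-rise mice and 59.9 ± 5.07 g in insulin-fall mice (adjusted p = 0.455), so the interval of the difference, -2.10 to 5.42 g, included 0. Liver triglyceride varied widely, from 151.1 to 962.0 mg/g in insulin-rise mice and from 85.3 to 818.0 mg/g in insulin-fall mice, and the difference in means of 66.3 mg/g did not pass (95% interval -93.5 to 226, adjusted p = 0.455). These tests took no account of sex. With labels permuted within recorded sex, glucose at 8 and 10 weeks (permutation test, adjusted p = 0.014 each) and triglyceride at 10 weeks (adjusted p = 0.0092) passed. Within females alone no phenotype passed (exact permutation tests, 12 and 8 mice, glucose at 10 weeks adjusted p = 0.13). Within males alone only triglyceride at 10 weeks passed (exact, 5 and 8 mice, adjusted p = 0.033).

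**Figure D2:**
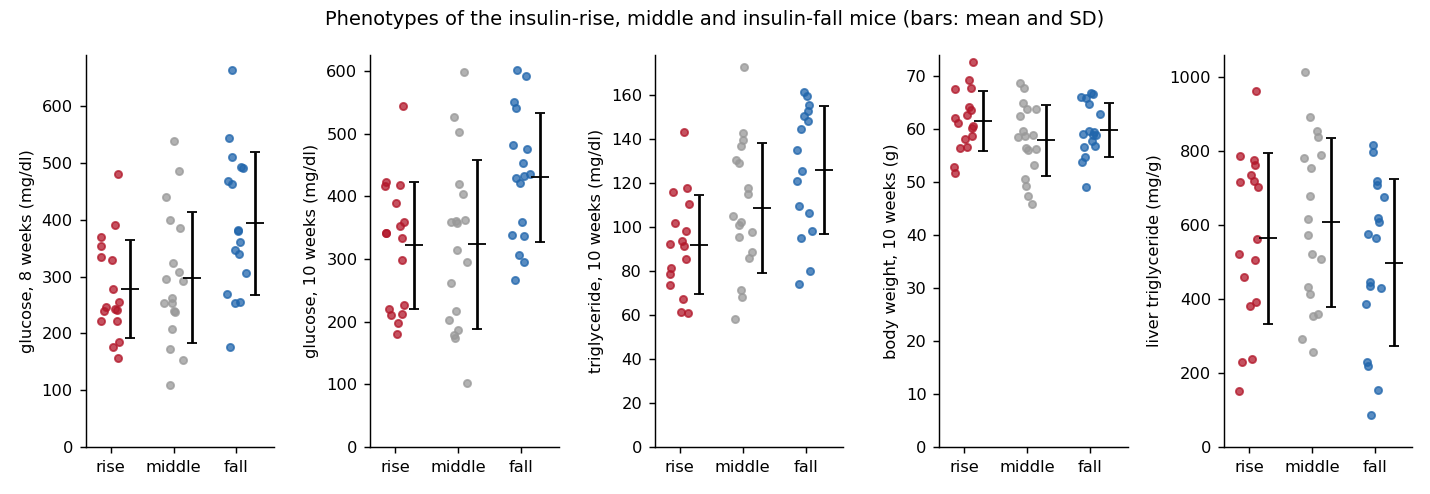
Plasma glucose at 8 and 10 weeks, plasma triglyceride and body weight at 10 weeks and liver triglyceride of each mouse, with insulin-rise, middle and insulin-fall mice from left to right and bars for the mean and SD. Glucose and triglyceride of insulin-rise mice sit lower (means 278 and 322 mg/dl for glucose, 92.0 mg/dl for triglyceride) than those of insulin-fall mice (394, 431 and 126.04 mg/dl), whereas weight and liver triglyceride overlap almost fully.

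Before the expression values were compared, the arrays were checked against the labels. Defining hepatocyte transcripts were near the top of the scale in both groups, with albumin (Alb) at a median log2 level of 14.11 in insulin-rise and 14.08 in insulin-fall livers. Xist, which marks a second X chromosome, went against the recorded sex in 5 of the 60 mice, 2 of them insulin-rise and 1 insulin-fall. Over 30 transcripts that follow the genotype on their own chromosome, RNA and genotype disagreed in 1 of 60 homozygous calls in these mice and in 9 of 924 in all mice. The transcripts were picked in these same 60 mice for how closely they follow genotype, which favours agreement. The source of the mismatch with recorded sex was not tested. A further 6 mice had an array apart from the rest (a median correlation with the other arrays of its type more than 3 MAD below the median), and 4 of these were insulin-rise mice and 1 an insulin-fall mouse. Because these arrays lay mostly in 1 group, many gene values and some list values are given both ways. A value given only once can also move without these arrays.

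No probe set passed correction between the groups. With limma, sex as a covariate and Benjamini-Hochberg adjustment, 0 of 22626 MOE430A probe sets (0%) and 0 of 22511 MOE430B probe sets (0%) reached an adjusted p under 0.05, and the smallest adjusted p was 1.0 on both. At an unadjusted p under 0.05 there were 591 probe sets on MOE430A (2.61%), 281 higher (1.24%) and 310 lower (1.37%) in insulin-rise livers. On MOE430B there were 775 (3.44%), 383 higher (1.7%) and 392 lower (1.74%). Differences were above 0 in 54.5% of MOE430A and 50.8% of MOE430B probe sets. Recorded sex in the same 34 mice gave 11 calls on MOE430A (0.0486%) and 3 on MOE430B (0.0133%). Unless another test or fit is named, every p of a single gene given from here on is limma's unadjusted p for this contrast. Each has an adjusted p of 1.0, so each such gene difference is a value and none is a call. Intervals are for the difference, insulin-rise minus insulin-fall, on the log2 scale.

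Of 25 metabolic and other gene lists, the one with the median furthest from 0 on MOE430A was that of amino acid breakdown and the urea cycle. Of its 29 MOE430A probe sets for 21 genes, none was called, 26 were lower in insulin-rise livers, and 15 were lower at an unadjusted p under 0.05, beside 1.37% of all probe sets. Their median difference was -0.22, against 0.01 for all MOE430A probe sets, and the mean level over the list ran from 9.34 through 9.98 to 10.26 in insulin-rise livers and from 9.85 through 10.15 to 10.52 in insulin-fall livers. Probe sets of such a list vary together from mouse to mouse, so their number is not a number of separate observations. The lists were chosen with earlier results of these data known, so the rank and the counts are a description. Without the mice with an array apart, 6 of the 29 had an unadjusted p under 0.05 and the median was -0.11, and with glucose at 10 weeks as a covariate 6 of 29 did, with a median of -0.19. The part of the arrays apart and of glucose in the list's shift was not tested.

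Transaminases pass the nitrogen of amino acids on towards urea. Got1, the cytosolic aspartate aminotransferase, ran from 8.76 through a median of 9.92 to 10.81 in insulin-rise livers, and from 9.49 through 10.28 to 11.63 in insulin-fall livers. Its difference was -0.63 ± 0.21 (SE), or 0.647-fold (95% interval -1.05 to -0.21, p = 0.0047), and -0.42 without the arrays apart (p = 0.034). Oat, the ornithine aminotransferase that links ornithine with proline and glutamate, ran from 9.88 through 10.72 to 11.24 in insulin-rise livers and from 10.13 through 11.14 to 11.97 in insulin-fall livers. In all, 15 of the 17 insulin-rise livers lay below the insulin-fall median, with a difference of -0.50 ± 0.16 (0.705-fold, p = 0.0027), and -0.44 without the arrays apart (p = 0.015). Tat, the tyrosine aminotransferase, which is also on the list of genes held down through FOXO1, differed by -0.35 ± 0.16 (p = 0.033), and by -0.30 without the arrays apart (p = 0.036).

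Differences along the urea cycle itself varied by step. Slc25a15, the carrier that brings ornithine into mitochondria, ran from 9.78 through 10.63 to 11.21 in insulin-rise livers and from 10.4 through 11.1 to 11.34 in insulin-fall livers, a difference of -0.35 ± 0.10 (p = 0.0019). Its value without the arrays apart was -0.25 (p = 0.0071). Cps1, the carbamoyl phosphate synthetase that starts the cycle, ran from 11.71 through 12.27 to 12.53 in insulin-rise livers and from 12.09 through 12.52 to 12.98 in insulin-fall livers. As many as 16 of 17 insulin-rise livers lay below the insulin-fall median, yet the difference of -0.25 ± 0.08 (p = 0.0054) was -0.16 without the arrays apart (p = 0.062). Ass1, the cytosolic argininosuccinate synthase, was measured on MOE430B and ran from 8.05 through 8.3 to 9.06 in insulin-rise livers and from 8.09 through 8.78 to 10.14 in insulin-fall livers (difference -0.41 ± 0.13, p = 0.0034). The highest of these values came from the insulin-fall mouse with an array apart, and without arrays apart the difference was -0.26 (p = 0.031). Of the remaining list members, named after their values were seen, Cth (-0.74) and Cbs (-0.29) of sulfur amino acid breakdown, Hal (-0.49), Asl (-0.43), Prodh (-0.41), Aass (-0.35), Arg1 (-0.21) and Hpd (-0.19) were also lower at an unadjusted p under 0.05. Otc, the mitochondrial urea cycle enzyme between Cps1 and Ass1, differed by -0.03 to -0.08 over its 3 probe sets, and Gpt2 was higher on all 3 of its MOE430A probe sets (0.11 to 0.17).

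**Figure D3:**
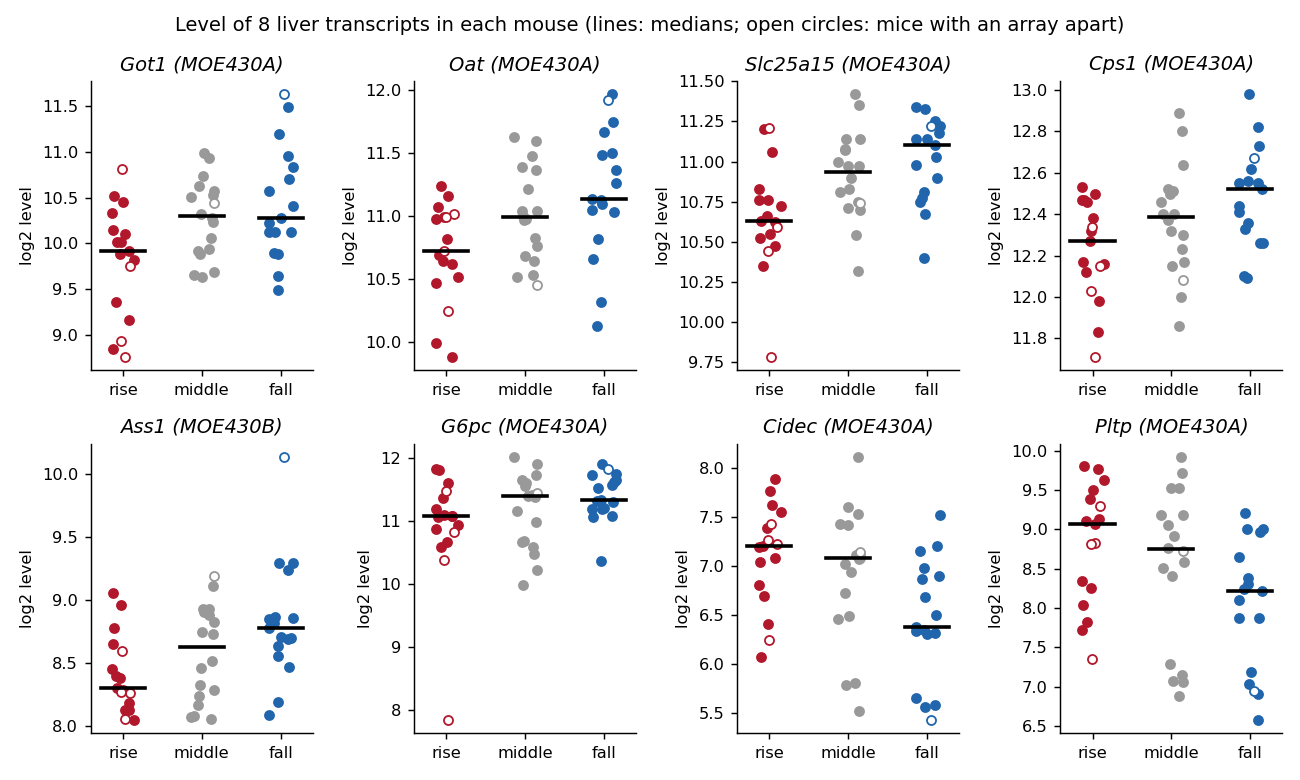
Log2 level of 8 transcripts in each liver, with insulin-rise, middle and insulin-fall mice from left to right, black lines for medians and open circles for mice with an array apart. The median of Got1 is 9.92 in insulin-rise and 10.28 in insulin-fall livers and that of Cidec is 7.2 and 6.38, the groups overlap for every transcript, and the insulin-rise liver with G6pc at 7.85 is an open circle.

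Genes that insulin holds down through FOXO1 showed small differences, mostly in 1 direction. Of 23 MOE430A probe sets for 13 genes, 21 were lower in insulin-rise livers and 3 (G6pc, Tat and Klf15) were so at an unadjusted p under 0.05, beside 1.37% of all probe sets, with a median difference of -0.05. Igfbp1, a secreted binding protein for insulin-like growth factors, ran from 7.46 through 9.06 to 10.52 in insulin-rise livers and from 8.13 through 9.23 to 11.04 in insulin-fall livers. Its difference of -0.55 ± 0.29 (95% interval -1.13 to 0.03, p = 0.063) was -0.62 without the arrays apart (p = 0.034). G6pc, the phosphatase that releases glucose from the liver, ran from 7.85 through 11.08 to 11.83 in insulin-rise livers and from 10.37 through 11.34 to 11.91 in insulin-fall livers (difference -0.52 ± 0.23, p = 0.031). Without the arrays apart the lowest insulin-rise liver had 10.59, and the difference was -0.17 (p = 0.24). Klf15, a transcription factor of amino acid use in fasting, differed by -0.32 ± 0.11 (p = 0.0086), and by -0.16 without the arrays apart (p = 0.11). Pck1, which commits carbon to glucose production, differed by -0.16 (95% interval -0.41 to 0.09). Ppargc1a, a coactivator of that programme, differed by -0.10, and Irs2, the insulin receptor substrate, by -0.01 (95% interval -0.10 to 0.07). The Irs2 probe set had a median of 6.85 in both groups, below the median of every MOE430A array (6.97 to 7.09). That of Ppargc1a had 7.0 and 6.98, and whether either tracks its transcript was not tested.

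The promoters of Igfbp1 and G6pc are shown because both genes carry the insulin response sequence through which FOXO1 acts. The sequences are from RefSeq (GRCm38.p6), 300 bases each, running from upstream of the transcription start to just past it, 5′ to 3′ on the plus strand of chromosome 11, at chr11:7197537-7197836 for Igfbp1 and chr11:101367466-101367765 for G6pc. Capitals mark matches to TGTTTTG or TATTTTG on either strand (CAAAACA and CAAAATA on the other).
Igfbp1: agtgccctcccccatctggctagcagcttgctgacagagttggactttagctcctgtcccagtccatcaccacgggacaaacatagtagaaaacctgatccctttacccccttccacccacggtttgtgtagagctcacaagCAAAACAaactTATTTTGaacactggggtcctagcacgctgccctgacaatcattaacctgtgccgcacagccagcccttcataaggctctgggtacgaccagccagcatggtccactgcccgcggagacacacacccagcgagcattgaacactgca
G6pc: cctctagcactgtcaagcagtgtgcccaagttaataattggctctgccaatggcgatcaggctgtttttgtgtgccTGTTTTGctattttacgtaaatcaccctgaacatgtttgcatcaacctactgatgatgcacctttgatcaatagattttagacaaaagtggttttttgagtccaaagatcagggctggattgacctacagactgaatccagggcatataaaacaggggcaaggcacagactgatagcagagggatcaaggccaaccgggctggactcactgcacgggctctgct
The Igfbp1 window holds 2 matches, the first starting 108 bases before the start site, and the G6pc window holds 1. In all, 6.28% of 32851 mouse promoter windows of this length hold TGTTTTG and 4.36% hold TATTTTG in either orientation, and 10.2% hold either. Of the 12 FOXO1 list genes with a promoter window 2 held a match, and of 17 amino acid and urea cycle genes 0 did. A match is a run of letters and was not tested as a site.

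**Figure D4:**
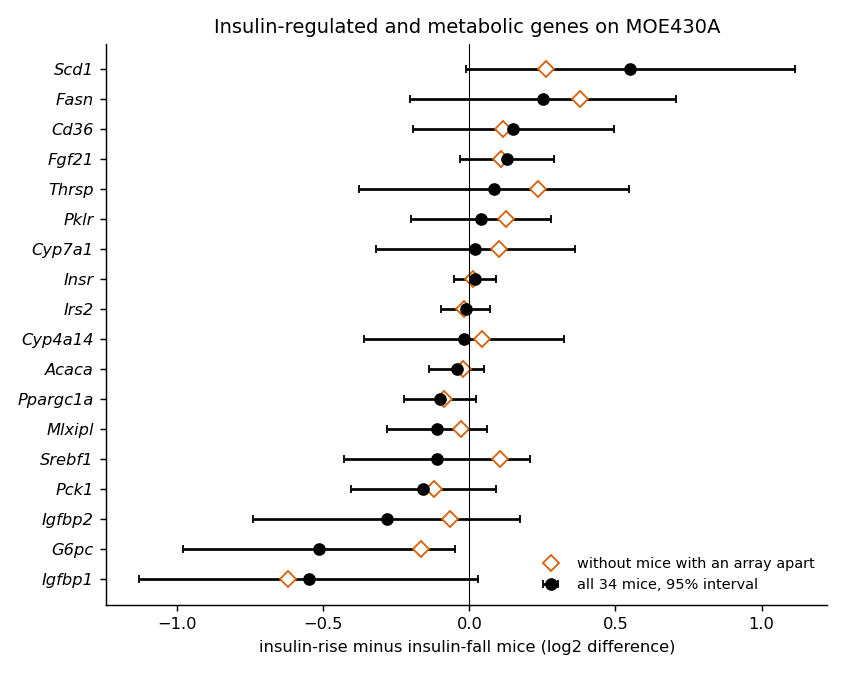
Difference between insulin-rise and insulin-fall livers (log2, adjusted for recorded sex) of 18 insulin-regulated and metabolic genes on MOE430A, with the 95% interval over 34 mice and, as open orange diamonds, the value without the mice with an array apart. The interval of G6pc alone leaves out 0, and its diamond moves to -0.17, while Igfbp1 stays at -0.62.

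On the anabolic side, lipid genes pointed the other way, with few small p-values. Of 33 fatty acid synthesis probe sets on MOE430A, 30 were higher in insulin-rise livers, beside 54.5% of all MOE430A probe sets, with a median of 0.08 and 1 higher at an unadjusted p under 0.05, beside 1.24% of all. That was Scd1, the stearoyl-CoA desaturase, whose probe set with the smaller p ran from 9.08 through 11.15 to 11.67 in insulin-rise livers and from 6.92 through 10.6 to 11.45 in insulin-fall livers (difference 0.67 ± 0.33, p = 0.046, and 0.44 without the arrays apart, p = 0.089). Its brighter probe set differed by 0.55 ± 0.28 (p = 0.054), and by 0.26 without the arrays apart (p = 0.098). The list depended on the mice and the measure: its median was 0.15 without the arrays apart, with 3 probe sets at an unadjusted p under 0.05, and 0.19 in females. It was 0.02 with 14 of 33 lower in males, and likewise 0.02 with 14 lower when the groups were cut on the difference of the insulin values in place of the ratio. Fasn, the fatty acid synthase, differed by 0.25 ± 0.22 (0.38 without the arrays apart, p = 0.090). Elovl5, an elongase, differed by 0.23 ± 0.16 (0.29 without them, p = 0.046). Acaca, the acetyl-CoA carboxylase, differed by -0.04 ± 0.05 (-0.02 without them), on a dim probe set with medians of 6.66 and 6.65. Among regulators, Srebf1, which encodes SREBP-1c, differed by -0.11 ± 0.16 (0.10 without the arrays apart), Mlxipl, which encodes ChREBP, by -0.11 ± 0.08 (-0.03 without them), and Srebf2, the sterol regulator, by -0.16 ± 0.06 (p = 0.007). Thrsp (0.08 ± 0.23, and -0.10 ± 0.08 on its MOE430B probe set) and Pklr (0.04 ± 0.12), targets of both insulin and glucose, had intervals wide on both sides of 0.

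Lipid droplet proteins coat stored triglyceride. Cidec, which fuses lipid droplets, ran from 6.07 through 7.2 to 7.88 in insulin-rise livers and from 5.43 through 6.38 to 7.52 in insulin-fall livers. Only 2 of 17 insulin-rise livers lay below the insulin-fall median, and the difference was 0.66 ± 0.20 (1.58-fold, 95% interval 0.27 to 1.06, p = 0.0017), or 0.59 without the arrays apart (p = 0.0076). Plin2, the main droplet coat protein of liver, differed by 0.22 ± 0.09 (p = 0.021, and 0.15 with p = 0.13 without the arrays apart), and Plin4 by 0.22 ± 0.13. Of the 41 MOE430A probe sets of triglyceride assembly and lipid droplets 28 were higher, beside 54.5% of all, and 2 were so at an unadjusted p under 0.05, beside 1.24%. Of the 10 on MOE430B 8 were lower and 2 higher, beside 50.8% of all MOE430B probe sets higher. Their median was -0.04, and none had such a p. Cd36, a fatty acid importer, differed by 0.15 ± 0.17.

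Lipoprotein genes split. Pltp, the plasma phospholipid transfer protein, ran from 7.35 through 9.07 to 9.81 in insulin-rise livers and from 6.58 through 8.21 to 9.21 in insulin-fall livers (difference 0.68 ± 0.26, 1.60-fold, p = 0.013, and 0.62 without the arrays apart, p = 0.024). Apoa1, the main protein of high-density lipoprotein, differed by 0.21 ± 0.08 (p = 0.015), while Scarb1, its hepatic receptor, differed by -0.27 ± 0.10 (p = 0.010). Without the arrays apart these were 0.21 (p = 0.029) for Apoa1 and -0.21 (p = 0.031) for Scarb1. These 3 genes supplied all 6 higher and 3 lower probe sets at an unadjusted p under 0.05 among 36 of the list on MOE430A, several probe sets a gene. Of all MOE430A probe sets 1.24% were higher and 1.37% lower at that p, and the list's median was 0.00. RT-qPCR gave a second measure of the same livers. Set against the array level of the same gene, as a description, the deposited delta Ct values had a Pearson's r of 0.888 for PLTP over 49 mice, 0.880 for SCD1 over 60 and 0.648 for PEPCK over 60, so for these a higher value is read as more transcript. Of the 9 assays set against a probe set, each the brightest of its gene on MOE430A, PDI had r = -0.35 and the other 8 had 0.381 to 0.894. The direction of PDI is not settled, and ACO, UCP2 and CPT1b were not set against a probe set. For Pltp this was another probe set than the one whose range is given above. PLTP ran from -4.11 through -2.54 to -1.23 in insulin-rise livers and from -6.64 through -3.47 to -1.41 in insulin-fall livers (difference 1.24, 95% interval 0.13 to 2.35, n = 14 and 13, permutation test, p = 0.030, adjusted p = 0.356 over 12 genes). SCD1 differed by 0.60 (95% interval -0.35 to 1.55, adjusted p = 0.675) and PEPCK, the product of Pck1, by -0.24 (-0.75 to 0.26, adjusted p = 0.675). None of the 12 genes passed.

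**Figure D5:**
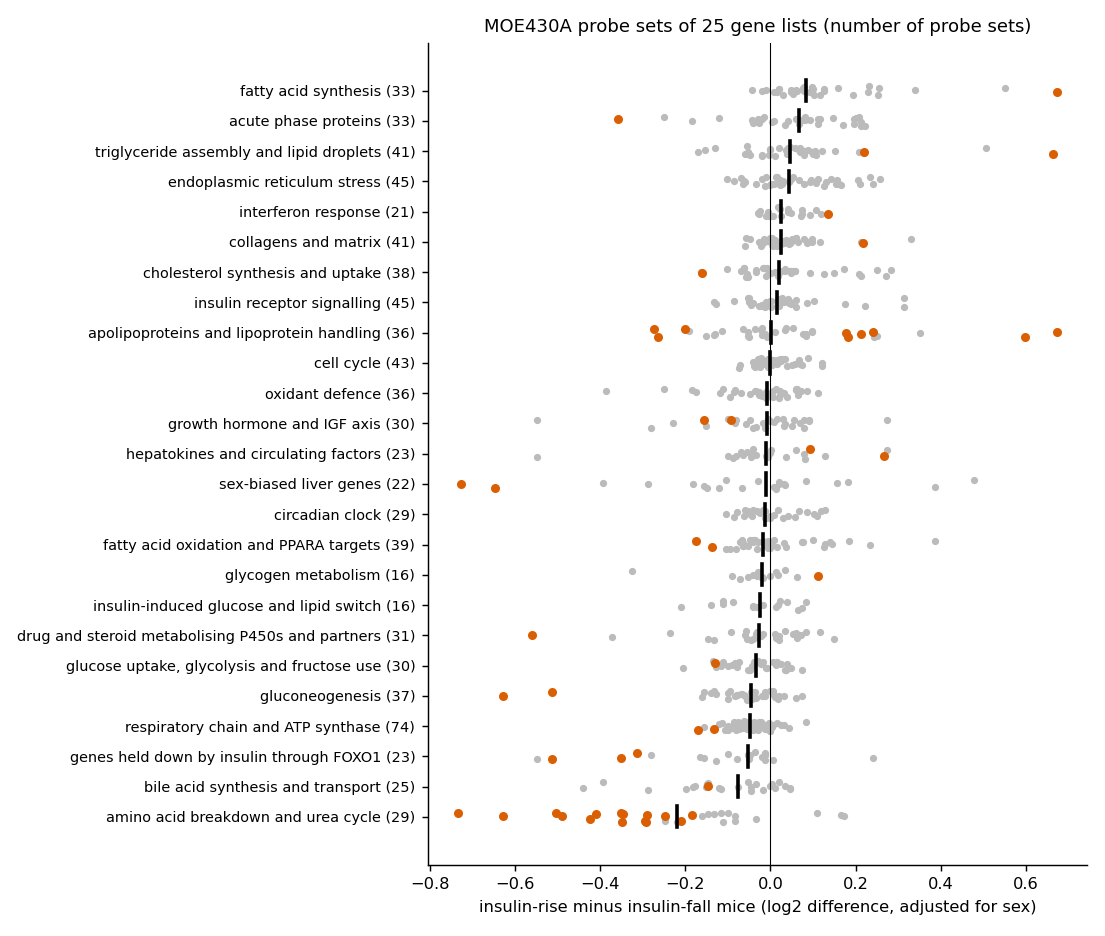
Difference between insulin-rise and insulin-fall livers (log2) of each MOE430A probe set in 25 gene lists, 1 row a list with the number of probe sets, an unadjusted p under 0.05 in orange, others in grey and the list's median as a black bar. The amino acid and urea cycle row lies furthest left with a median of -0.22, fatty acid synthesis furthest right at 0.08, and no probe set was called.

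Among other metabolic lists, 19 of 25 bile acid synthesis and transport probe sets on MOE430A were lower in insulin-rise livers, by a median of -0.08. The other 6 were higher, beside 54.5% of all, and 1 was lower at an unadjusted p under 0.05, beside 1.37% of all. Cyp8b1, with the largest difference of that list, differed by -0.44 ± 0.26 (p = 0.097), and by 0.03 without the arrays apart (p = 0.82). Of 74 respiratory chain and ATP synthase probe sets on MOE430A only 7 were higher, beside 54.5% of all, and 67 were lower, by a median of -0.05. At an unadjusted p under 0.05, 2 of these MOE430A probe sets were lower, beside 1.37% of all. They were Sdhb, a subunit of complex II, at -0.17 ± 0.08 (-0.08 without the arrays apart, p = 0.31), and Cyc1, of complex III, at -0.13 ± 0.06 (-0.07, p = 0.30). On MOE430B 4 of 8 probe sets of the list were lower, with a median of 0.00. Without the mice with an array apart, 46 of the 74 were lower by a median of -0.02, and none had an unadjusted p under 0.05. The insulin receptor gene Insr differed by 0.02 (95% interval -0.05 to 0.09). None of 45 MOE430A probe sets of insulin signalling had an unadjusted p under 0.05, beside 2.61% of all. Fgf21, a fasting hormone of the liver, differed by 0.13 ± 0.08, Cyp4a14, a target of PPARA, by -0.02 ± 0.17, and Cyp7a1, the rate-limiting enzyme of bile acid synthesis, by 0.02 ± 0.17. Inhbe, a hepatokine subunit of the activin family, ran from 8.17 through 8.56 to 9.17 in insulin-rise livers and from 7.49 through 8.35 to 8.72 in insulin-fall livers (difference 0.27 ± 0.09, p = 0.0056, and 0.21 without the arrays apart, p = 0.030). Hamp, the iron hormone hepcidin, differed by -0.36 ± 0.15 (p = 0.025), and by -0.20 without the arrays apart (p = 0.21).

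The 22 MOE430A probe sets of the sex-biased list split into 11 higher and 11 lower, with a median of -0.01. At an unadjusted p under 0.05, 2 were lower, beside 1.37% of all. Of 31 P450 probe sets 13 were higher and 18 lower, with a median of -0.03 and 1 lower at that p, beside the same 1.37%. Those 3 were the following. Sult1e1, the estrogen sulfotransferase, differed by -0.73 ± 0.27 (p = 0.010), Elovl3, a male-biased elongase, by -0.65 ± 0.28 (p = 0.028), and Cyp2c37, a P450, by -0.56 ± 0.22 (p = 0.016). Without the arrays apart they differed by -0.83 (p = 0.0081), -0.46 (p = 0.12) and -0.35 (p = 0.13) in that order. Cyp4a12a, a male-biased P450, stood on the other side at 0.39 ± 0.34 (p = 0.26). These values were adjusted for recorded sex, which Xist contradicted in 3 of the 34 mice. The test of whether the difference itself differed between females and males called 0 probe sets on each array type (smallest adjusted p 1.0 on MOE430A and 0.37 on MOE430B, with 322 and 907 at an unadjusted p under 0.05).

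Markers of other liver cells were compared in the same way. In bulk liver, fewer cells of a type and less RNA per cell cannot be told apart. For Kupffer cells and macrophages, 0 of 21 MOE430A probe sets had an unadjusted p under 0.05, beside 2.61% of all. The mean level of the list spanned 7.33 to 8.15 in insulin-rise and 7.33 to 8.14 in insulin-fall livers. The median difference of this list was -0.02, with 13 of 21 lower, and it moved to -0.08 with 17 lower without the arrays apart, to 0.09 in females and to -0.14 in males, with 0 of 21 at an unadjusted p under 0.05 in each. Of 16 sinusoidal endothelial probe sets, 3 were higher at that p (2 of Lyve1, at 0.13 and 0.26, and 1 of Cdh5, at 0.09), beside 1.24% of all. List levels were 7.42 to 7.84 in insulin-rise and 7.40 to 7.68 in insulin-fall livers. Clec4g, another gene of that list, differed by -0.15 ± 0.10 (p = 0.15), and by -0.20 without the arrays apart (p = 0.029). Col4a1, a basement membrane collagen, differed by 0.22 ± 0.07 (p = 0.0046), and by 0.13 without the arrays apart (p = 0.0066). Among adipocyte genes, 2 of 3 MOE430B probe sets were higher at that p, beside 1.7% of all MOE430B probe sets. Both were for Car3, whose level reached 8.38 in insulin-rise and 6.25 in insulin-fall livers (difference 0.48 ± 0.21, p = 0.028, and 0.66 without the arrays apart, p = 0.0028). Adipoq, the adipocyte hormone gene, named after its values were seen, stood at mean levels of 4.98 in insulin-rise and 5.01 in insulin-fall livers, and none of 10 MOE430A probe sets of the adipocyte list, Car3 at 0.07 among them, had such a p. Of 13 hepatocyte probe sets, 4 of Apoa1 were higher and 1 of Cps1 lower at an unadjusted p under 0.05, beside 1.24% and 1.37% of all. Alb differed by 0.02 ± 0.04.

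The probe sets with the smallest p showed small shifts, many at low levels. Higher in insulin-rise livers on MOE430A were Tbl1xr1 (0.15, p = 3.17e-04), a corepressor subunit, Nfya (0.11), a subunit of the CCAAT-binding factor, Urm1 (0.14), a ubiquitin-like modifier, Cidec, Tcof1 (0.12), of ribosome production, and Pik3cd (0.11), a catalytic subunit of phosphoinositide 3-kinase. Lower were Tmem243 (-0.41, p = 3.22e-04), Gsto1 (-0.34, p = 4.87e-04), an omega-class glutathione transferase, Slc25a15, Sephs2 (-0.27), a selenophosphate synthetase, Tmem121 (-0.13) and Oat. Gsto1 ran from 8.95 through 9.32 to 9.75 in insulin-rise livers and from 9.31 through 9.57 to 10.23 in insulin-fall livers, and the ranges overlapped. On MOE430B the leading probe sets were Nrip1 (0.12), a corepressor, Phf3 (0.23), 4930430F08Rik (0.14), Foxk2 (0.11), a forkhead factor, Rspo3 (0.16), an enhancer of Wnt signalling, and Trip13 (0.11) on the higher side. Gen1 (-0.16, p = 3.46e-04), a DNA resolvase, 4921525O09Rik (-0.13), Dgcr8 (-0.13), a partner of Drosha in microRNA processing, 4933400F21Rik (-0.13), Ppp1r9a (-0.12) and Rnf130 (-0.12) stood on the lower side. All 17 insulin-rise livers lay below the insulin-fall median for Gen1, whose levels of 3.59 to 3.95 in insulin-rise and 3.81 to 4.21 in insulin-fall livers were among the dimmest on the array.

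Genotype did not separate the groups after correction. Of 194 markers, 0 passed (0%) and 12 had an unadjusted p under 0.05 (6.19%) in exact tests of the 3 genotypes against group, with a smallest adjusted p of 0.518. The smallest p belonged to D1Mit64 at the start of the Chromosome 1 map (0 cM, p = 0.0048), where 10 insulin-rise mice were homozygous for the allele coded A, 3 heterozygous and 4 homozygous for B, against 1, 7 and 9 insulin-fall mice. Which founder strain each letter stands for was not stated in the files read. Neighbouring D1Mit211 at 8.0 cM (p = 0.0069) shared most of these mice, D12Mit12 on Chromosome 12 had p = 0.0099, and D9Mit182 on Chromosome 9 had p = 0.011. Heterozygous calls made up 46.5% in insulin-rise and 45.1% in insulin-fall mice.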

How the data were processed

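Liver expression of F2-ob/ob mice was measured on Affymetrix MOE430A and MOE430B arrays. Array images were read with MAS5 and probe sets normalized with RMA by the authors. The matrices they deposited hold log2 levels, 1 matrix for each array type, so no level was compared between types. Deposited phenotypes, delta Ct values from RT-qPCR (a log2 scale, per the file headers) and genotypes at 194 markers were used as given. Rows of further mice without arrays were not used here. Precision is set by how many mice a group holds.

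Groups were cut into 3 by rank on the log2 ratio of the deposited insulin values, ties by mouse number. Probe sets (64 control probe sets a type left out) were fitted with limma 3.58.1 in R 4.3.3 with recorded sex as a covariate, and p-values were adjusted by Benjamini-Hochberg over each array type, called under 0.05. Of MOE430A probe sets 20380 had 1 gene symbol, 691 several and 1555 none, and of MOE430B probe sets 14661, 245 and 7605. Phenotypes and RT-qPCR values were compared by two-sided permutation tests (exact where a group held under 10 mice) and markers by Fisher's exact test on 2 by 3 tables, in Python 3.11.15 with scipy 1.17.1. The limma fit was tested on simulated data. Members and gene lists were chosen with earlier results of these data known. Genes named were the 6 with the smallest p in each direction on each array type, up to 4 with the smallest p of each of 36 lists, and 18 insulin-regulated and metabolic genes, each of these by its probe set with the highest mean level, with exceptions stated. Alternatives changed the cut, covariates, mice, filter, weights and the insulin measure.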

Additional observations from a re-analysis of the deposited data

How the results depend on the processing

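All 17 alternatives of the probe set fits gave 0 calls on MOE430A and on MOE430B (smallest adjusted p 0.818 to 1.0 and 0.748 to 1.0). The lowest of both came with the insulin ratio as a number over 52 mice. The share of probe sets at an unadjusted p under 0.05 ran from 1.71% to 4.46% on MOE430A and from 3.01% to 4.45% on MOE430B. Markers gave 0 calls and RT-qPCR 0 calls under each alternative run. RT-qPCR of F2 mice without arrays was not run, since those mice match no sample used here. The alternatives without the mice whose Xist goes against recorded sex and with sex read from Xist were chosen after seeing the data, as was the count for the amino acid list. No paired analysis was possible because insulin-rise and insulin-fall mice are different animals and the 2 array types of a mouse were never compared.

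Of 7 phenotypes, 3 passed. In females alone 0 did: glucose differed by -52.9 mg/dl at 8 weeks and -92.1 at 10 weeks, triglyceride at 10 weeks by -19.4 mg/dl, and weight at 10 weeks by -0.83 g, the opposite direction to all mice. In males alone 1 did: glucose differed by -137.5 mg/dl at 8 weeks and -61.5 at 10 weeks without passing. Between the highest and the lowest 13 mice, triglyceride at 10 weeks differed by -21.5 mg/dl and did not pass, and without the mice whose Xist goes against recorded sex triglyceride at 8 weeks did, at -0.39 on the log2 scale. The causes were not tested.

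The amino acid and urea cycle list on MOE430A had between 4 (males only) and 19 probe sets (ratio as a number) lower at an unadjusted p under 0.05, with 8 in females only and 9 with groups cut on the insulin difference. Of 71 named genes followed through the alternatives, 8 changed sign under some alternative. Other genes named above were not counted there, and of these Cyp8b1, at -0.44 in all mice, changed sign without arrays apart (0.027). Among the 8, Cyp4a14 changed sign without sex (0.044), between the highest and lowest 13 mice (0.059), with glucose (0.027), without arrays apart (0.042), in males (0.397) and with the insulin difference (0.004). Cyp7a1 did so between the highest and lowest 13 mice (-0.019), with the ratio as a number (-0.01) and in males (-0.17), Pklr between the upper and lower 26 mice (-0.036), with glucose (-0.038), in males (-0.175) and with the insulin difference (-0.03), and Thrsp likewise (-0.041, -0.044, -0.04 and -0.096). Srebf1 changed without arrays apart (0.104), in females (0.005) and with array weights (0.04), Igfbp2, at -0.28 in all mice, in females (0.017), Irs2 between the upper and lower 26 mice (0.01), and Cyp4a12a, at 0.39 in all mice, without sex (-0.008) and in males (-0.139). By RT-qPCR, PDI changed sign between the highest and lowest 13 mice (0.16) and CPT1a without the mice whose Xist goes against recorded sex (0.12).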

Other observations

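The level of insulin at the second bleed, in place of its change, was also fitted as a number, an alternative chosen after the data were seen. Over 57 mice with recorded sex as a covariate, limma called 10 of 22626 MOE430A probe sets (0.0442%), all lower with more insulin, and 5 of 22511 MOE430B probe sets (0.0222%), 1 higher and 4 lower, with 1662 and 1787 at an unadjusted p under 0.05. Insulin at 8 weeks, over 55 mice, gave 0 calls on either type (887 and 1064 probe sets at an unadjusted p under 0.05). Of the 10 on MOE430A, 5 are among the 29 probe sets of the amino acid breakdown and urea cycle list. Got1 dropped by 0.27 per doubling of insulin at 10 weeks (SE 0.05, adjusted p = 0.0052), Tat by 0.20 (adjusted p = 0.015), Oat by 0.20 (adjusted p = 0.050), Cps1 by 0.10 (adjusted p = 0.037) and Arg1 by 0.10 (adjusted p = 0.037). Gsto1 had the smallest p, with a slope of -0.12 per doubling (SE 0.02, adjusted p = 0.0026). These genes overlap with those named above from the contrast of insulin-rise and insulin-fall mice. The fits share mice and the same insulin value, so neither is independent of the other. The level fit was not repeated without the mice with an array apart. Among these, insulin-rise mice had 94.0 and 103.8 ng/ml at 10 weeks and the insulin-fall mouse had 2.8 ng/ml.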
